A study of Mus musculus with 38 samples.

Results

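The step from 4 to 8 hours compares RNA from macrophages harvested 8 h after a stimulus with RNA from macrophages harvested 4 h after it, without lactic acid. It rests on 8 of the 38 samples of the series, 4 libraries at each time, and covers all 11184 genes that the table lists. The cells were primary macrophages grown from bone marrow of C57BL/6 mice and stimulated with 5 ng/ml of the bacterial product lipopolysaccharide (LPS) together with IFNg, interferon-gamma, at 12 ng/ml, which drive them toward the inflammatory state called M1. Both the 4h and the 8h group carried both agents, and neither received lactic acid. The other RNA groups used here are 0h (unstimulated), 16h, 24h and LA 8h, a group given lactic acid 4 h after LPS and IFNg, each with 4 libraries. Chromatin immunoprecipitation (ChIP-seq) for lactylation (H3K18la) and acetylation (H3K18ac) of histone H3 was done at 0 h (M0) and at 24 h (M1), with 1 library for each mark and state.

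LPS is a component of the wall of Gram-negative bacteria and is sensed by Toll-like receptors, which switch on cytokine genes within hours through the factors NF-kB and IRF3. IFNg, and the type I interferon that LPS-treated macrophages secrete, act through STAT factors on antiviral and antigen presentation genes. The early burst is limited by inhibitors that the same signals induce, while stimulated macrophages turn to glycolysis, secrete lactate and mount stress responses.

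Depth, as reads that fell in listed genes, was 87.0 to 103.9 M per library at 4 h and 74.0 to 79.6 M at 8 h. Values are RPKM, reads scaled by gene length and by an effective library size that differs from the reads in listed genes. Relative to those reads, the size recovered from the values was 1.32 to 1.34 at 0 h, 0.91 to 0.95 at 4 h and 0.94 to 0.98 at 8 h. The 0h means given below carry that scaling. Fold changes are differences of log2(RPKM + 1), which understate the change of genes with low values. A gene was tested if it had 1 RPKM or more in 4 or more of the 32 RNA libraries, which 9942 genes met, and it is called higher or lower where the limma p-value, adjusted by Benjamini-Hochberg over all genes tested, is under 0.05. Whether each replicate had its own mouse or culture is not in the labels. These p-values therefore measure only the spread between libraries within groups, estimated over all 32 RNA libraries together. The table lists only genes that passed the authors' own test over the whole series, with 19 exceptions, so every share is a share of that list. The defining macrophage genes were present at both times, with Cd68 at 926 ± 41.02 RPKM, Adgre1 at 628 ± 26.9 and Csf1r at 253 ± 16.1 at 8 h (SD, n = 4). In bulk RNA, fewer cells of a kind and less RNA per cell cannot be told apart.

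Between 4 and 8 h most genes of cytokines, chemokines, interferon-induced GTPases, DNA replication and mitosis fell. Most genes of the glycolysis, hypoxia target, NRF2 target, acute phase and iron, and heat shock lists rose. The counts are given with each list and are to be read against the shares of all genes tested that follow. Of the 9942 genes tested, 3458 were higher at 8 h (34.8%) and 3672 were lower (36.9%), while 2812 were not called. The median log2 fold change was -0.02, and the 5th and 95th percentiles were -1.16 and 0.94. At least 2-fold changes were called for 435 genes higher and 659 lower, and at least 4-fold changes for 46 higher and 119 lower. Of 222 named genes tested, 216 were called, but most were picked for being called, so this count is largely fixed by the choice. Of the called ones, the 4h and 8h libraries overlapped in value only for Sdhb and Cebpb. Lack of overlap was usual in this step, since it held for 7178 of all 9942 genes tested.

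**Figure D1:**
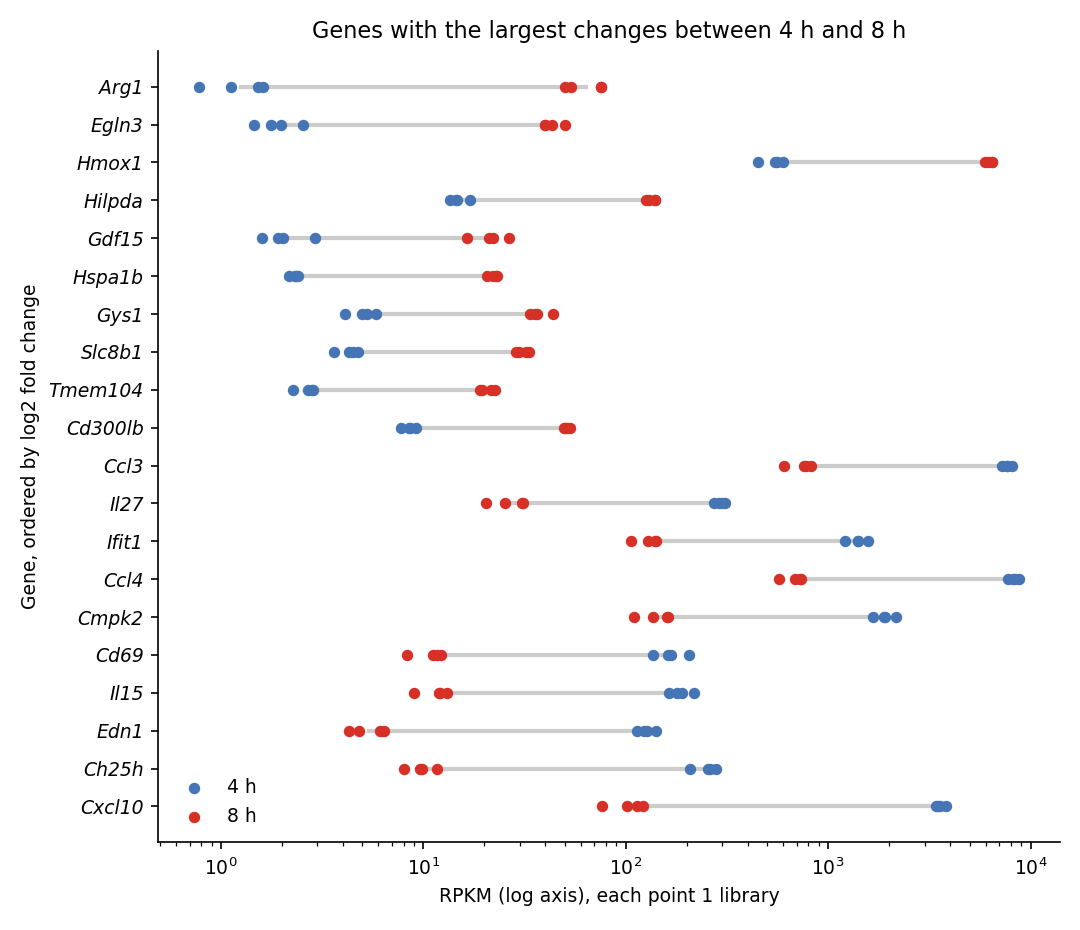
RPKM on a log axis in each of the 4 libraries at 4 h (blue) and 8 h (red) for the 10 higher and the 10 lower called genes with the largest log2 fold changes, where the mean of log2(RPKM + 1) was 3 or more; grey lines join the group means. In none of the 20 genes did a 4h library overlap an 8h library, as in 7178 of the 9942 genes tested. Arg1 (4.83) and Cxcl10 (-5.12) mark the ends.

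Genes of secreted cytokines mostly fell. Of 21 tested, 17 were lower and 3 higher (81.0% and 14.3%, against 36.9% and 34.8% of all genes tested), with a median of -1.37. Il15, which encodes a growth factor of natural killer and memory T cells, had 163, 217, 179.9 and 191 RPKM in the 4h libraries and 12.1, 8.99, 13.03 and 11.9 in the 8h libraries. Its 8h libraries all lay below its 4h libraries, a log2 change of -3.92 (SE 0.09, limma adjusted p = 9.9e-26), and the 8h mean was close to the 0h mean of 13.4 ± 1.53 RPKM. Il27, the p28 subunit of interleukin 27, went from 291, 311, 273 and 298 RPKM to 30.7, 20.4, 31.3 and 25.4 RPKM, a fall of 10.9-fold in the mean. Il10, the main anti-inflammatory cytokine of macrophages, went from 58.3, 81.4, 71.1 and 73.6 RPKM to 6.19, 5.59, 6.19 and 6.62 RPKM, and Il6, an inducer of the acute phase response, from 133, 158, 137 and 145 to 15.03, 13.2, 17.5 and 16.04.

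Both Il10 and Il6 dropped in every 8h library below every 4h library, by 3.33 and 3.14 on the log2 scale. The death ligand gene Tnfsf10 (TRAIL) fell by 3.17, with 49.6 to 74.3 RPKM at 4 h and 4.798 to 6.94 at 8 h. The founding inflammatory cytokines fell less. Tnf had 1137, 958, 933 and 1005 RPKM at 4 h and 411, 346, 410.3 and 389.9 at 8 h, a log2 change of -1.37 (SE 0.08). Il1b had 2102, 1994, 1986 and 1998 RPKM at 4 h and 993, 945, 1108 and 1186 at 8 h, a log2 change of -0.94 (SE 0.22, limma adjusted p = 0.0003). At 8 h Tnf and Il1b thus stood at 2.59 and 1.91 times less than at 4 h, while Il6 stood at 9.29 times less.

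The members that rose were Il1rn, Csf3 and Ebi3. Il1rn encodes the secreted antagonist of the interleukin 1 receptor and had 380.5, 426, 474 and 433 RPKM at 4 h and 830.2, 871, 881 and 855 at 8 h, a log2 change of 1.01 (SE 0.11). Its 8h libraries lay above all 4h libraries, and its mean fell again to 100.4 RPKM at 16 h. Csf3, the granulocyte growth factor G-CSF, had 11.6 to 16.7 RPKM at 4 h and 23.4 to 27.6 at 8 h (0.89). Ebi3, a subunit shared by interleukins 27 and 35 and named after its value was seen, rose by 0.38. The subunits of interleukin 27 therefore moved in different directions over the step, Il27 down and Ebi3 up.

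Among chemokine genes, whose products attract leukocytes, 13 of 19 were lower and 3 higher, with a median of -1.12. Cxcl10, an interferon-induced attractant of T cells, had the largest fall of the named genes. It was read at 3496, 3803, 3406 and 3584 RPKM at 4 h and at 113, 76.1, 121 and 102 RPKM at 8 h. The means differed 34.6-fold (log2 fold change -5.12, SE 0.13, limma adjusted p = 7.8e-25), and no library of one time overlapped the other. Its relative Cxcl11 fell by 2.32, with 20.4 to 31.2 RPKM at 4 h and 3.27 to 5.23 at 8 h.

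The inflammatory chemokine genes Ccl3 and Ccl4 both fell. Ccl4 had 8153, 8748, 7771 and 8337 RPKM at 4 h and 729, 569.7, 736 and 686 at 8 h, and Ccl3 had 8129, 7641, 7192 and 7614 and then 776, 604, 824 and 764. Both lost about as much, 12.1-fold and 10.3-fold in the means, with log2 fold changes of -3.61 (SE 0.09) and -3.37 (SE 0.10). Ccl5, an attractant of T cells and monocytes, went the other way, from 3042, 3240.3, 2997 and 3105 RPKM at 4 h to 4654, 4072, 4936 and 4858 at 8 h (log2 fold change 0.58, SE 0.12, limma adjusted p = 5.4e-05). Every 8h library of Ccl5 exceeded every 4h library. The other risers were Ccl6 (0.38) and, named after its value was seen, Ccl9 (0.22), both constitutive chemokines of mouse macrophages.

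Edn1 and Cd69 were also among the 10 deepest falls. Edn1 encodes the precursor of the vasoconstrictor endothelin 1 and went from 113, 142, 124 and 127 RPKM to 6.09, 4.32, 6.400 and 4.798 RPKM (-4.32, SE 0.08). Cd69, an early activation antigen of leukocytes, went from 136, 206, 161 and 168 to 11.2, 8.35, 12.2 and 11.7 RPKM (-3.83, SE 0.09). Neither gene had overlapping groups, and both were nearly silent before the stimulus, with 0h means of 0.0187 and 0.338 RPKM.

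Genes that damp inflammatory signalling mostly fell as well. Of 24 tested, 18 were lower and 3 higher, with a median of -1.15. Dusp2, a phosphatase of MAP kinases, had 36.8 to 43.4 RPKM at 4 h and 4.44 to 7.62 at 8 h (-2.54, SE 0.10). Nfkbiz, a nuclear IkB protein needed for a set of secondary response genes, fell by 2.46, Otud1, a deubiquitinase, by 2.32, and Zfp36, which destabilizes cytokine mRNA, by 1.84. The 3 that rose were Dusp5 (2.800, 2.58, 2.72 and 2.51 RPKM at 4 h and 8.96, 8.41, 9.22 and 8.804 at 8 h, 1.43), the adaptor gene Sh2b2 (1.03) and Irak3 (0.42, named after its value was seen), an inhibitory kinase of Toll-like receptor signalling.

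Immediate early transcription factors split almost evenly, with 10 of 21 higher, 11 lower and a median of -0.20. The shares were 47.6% and 52.4%, against 34.8% and 36.9% of all genes tested. Egr1 had 3.74 to 4.65 RPKM at 4 h and 0.678 to 0.8697 at 8 h (-1.55, SE 0.04), Klf6 fell by 1.36, the antiproliferative gene Btg2 by 1.21 and Ier2 by 1.19. Fosl1, a partner of Jun in the AP-1 factor, went from 1.202, 0.682, 0.906 and 0.644 RPKM to 5.92, 6.27, 5.87 and 6.35 RPKM, the largest rise of the list (1.94, SE 0.10). Klf10, a target of TGF-beta, rose by 1.58, with 2.12 to 2.65 RPKM at 4 h and 8.73 to 9.47 at 8 h.

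Antiviral interferon-stimulated genes moved in both directions. Of 31 tested, 19 were lower, 8 higher and 4 not called, with a median of -0.49. Ifit1, which binds viral RNA that lacks a proper cap, had 1209.8, 1572, 1404 and 1402 RPKM at 4 h and 139, 106, 142 and 129.5 at 8 h (-3.43, SE 0.11). Cmpk2, a mitochondrial nucleotide kinase, had 1663, 2166, 1880.5 and 1919 and then 160.5, 110.5, 162 and 137 RPKM (-3.74, SE 0.14). Cmpk2 and its neighbour Rsad2 (viperin, -3.34) fell by similar amounts, as did Ifit2 (-3.12), and in each the 8h libraries lay below all 4h libraries.

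The 8 that rose were changed by less. Bst2 (tetherin), which holds budding virions at the cell surface, went from 599.7, 689, 601 and 625 RPKM to 1065, 995, 1099 and 1114 RPKM (0.77, SE 0.11, limma adjusted p = 2.5e-07), and its mean was higher again at 16 h (1476 ± 104). Oas1g, an oligoadenylate synthetase that activates RNase L, rose, with 26.7 to 34.6 RPKM at 4 h and 46.3 to 54.2 at 8 h (0.70). The Oas1 and Ifit genes have near-identical copies, so the split of reads among copies is uncertain.

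The GTPases that IFNg induces to attack intracellular pathogens, together with the interferon factors that drive them, fell in 15 of 16 members tested and rose in none (median -1.35). Iigp1 went from 129.8, 213, 186 and 182 RPKM at 4 h to 19.8, 15.2, 21.3 and 18.5 RPKM at 8 h, without overlap (-3.17, SE 0.15). Irgm2 fell by 2.56, Gbp5, an activator of inflammasomes, by 2.37 and Tgtp2 by 2.20, though Tgtp2 has a near-identical copy, Tgtp1. Gbp2, named after its value was seen, was the member not called, at 769 to 951 RPKM at 4 h and 758 to 862 at 8 h.

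Promoter windows of some members that fell and of some that rose held the same short sequence. Promoter windows of 300 bases, from 250 before to 50 after a gene's start, come from RefSeq (GRCm38.p6), 1 per gene, and were matched for 8053 of the 9942 genes tested (81%). The interferon response element was searched as GAAA, any 2 bases and GAAA again, on both strands. Below are the windows of Ifit1 (chr19:34640639-34640938, plus strand) and Rsad2 (chr12:26456403-26456702, minus strand), both genes that fell. They run 5′ to 3′ on the gene's strand, with the matches in capitals, here read on the other strand (TTTC, any 2 bases, TTTC).
Ifit1: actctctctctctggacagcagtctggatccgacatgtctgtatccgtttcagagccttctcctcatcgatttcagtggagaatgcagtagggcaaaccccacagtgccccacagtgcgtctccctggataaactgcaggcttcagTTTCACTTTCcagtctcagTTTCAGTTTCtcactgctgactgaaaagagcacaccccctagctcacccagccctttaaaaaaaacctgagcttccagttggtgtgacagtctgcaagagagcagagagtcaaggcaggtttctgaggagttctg
Rsad2: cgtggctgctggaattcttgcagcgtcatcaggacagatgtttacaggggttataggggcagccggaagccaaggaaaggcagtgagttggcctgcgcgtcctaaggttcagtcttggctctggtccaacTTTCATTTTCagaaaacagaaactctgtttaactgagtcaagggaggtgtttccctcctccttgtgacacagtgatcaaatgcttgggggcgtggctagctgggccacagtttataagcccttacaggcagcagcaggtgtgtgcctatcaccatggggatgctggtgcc
Such a match was found in 14 of 25 antiviral windows and in 9 of 11 windows of the GTPase list, against 3.415% of the windows of all genes tested and 3.489% of all 27025 windows in the table. Among the antiviral genes it was present in 9 of 16 lower members and in 4 of 7 higher members, so these letters did not separate them. A match describes a sequence and does not show that a factor bound there.

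Antigen presentation genes were called about as often as all genes tested (34.8% higher and 36.9% lower). Of 20 MHC class I genes, 9 were higher and 7 lower (45% and 35%, median 0.13). The leading risers were H2-T23 at 0.58, the proteasome activator genes Psme1 and Psme2 at 0.44 each, and B2m, the light chain of class I, with 2862 to 3297 RPKM at 4 h and 3922 to 4263 at 8 h (0.39). Nlrc5, the transcriptional activator of class I genes, fell from 19.1, 15.7, 17.7 and 17.8 RPKM to 7.29, 6.29, 6.11 and 5.48 RPKM (-1.35, SE 0.09), and the peptide transporter gene Tap1 fell by 0.75. Of 13 class II and costimulation genes, 4 were higher and 5 lower (30.8% and 38.5%). Cd83, a maturation marker, went from 54.8, 71.7, 63.1 and 64.6 to 13.8, 10.3, 14.2 and 11.9 RPKM (-2.26), Tnfsf4 (OX40 ligand) fell by 1.32, Icosl by 1.19 and Cd80 by 0.80, while the class II chain gene H2-Ab1 rose by 0.85 and H2-DMa, which loads peptides on class II, by 0.36.

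Arginine metabolism turned over its leading enzymes. Nos2, the inducible nitric oxide synthase, which makes nitric oxide from arginine, had 418, 418, 462 and 443 RPKM at 4 h and 146, 124, 138 and 123 at 8 h, a log2 change of -1.71 (SE 0.13). Arg1, arginase 1, which turns arginine into ornithine and marks macrophages of the repair type, had 1.52, 0.7804, 1.61 and 1.12 RPKM at 4 h and 50.3, 75.7, 53.5 and 75.5 at 8 h. It was the gene with the largest rise, 50.7-fold in the mean (4.83, SE 0.22, limma adjusted p = 7.3e-19), and every 8h library exceeded every 4h library. In mean RPKM the ratio of Nos2 to Arg1 reversed only later, since Nos2 still had the higher mean at 8 h, and at 16 h the means were 8.51 for Nos2 and 463 for Arg1.

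Over the whole list of arginine, nitric oxide, itaconate and polyamine genes, 12 of 18 were lower and 4 higher (median -0.35). Odc1, which makes the polyamine putrescine from ornithine, went from 185, 219, 217 and 212 RPKM to 63.6, 55.4, 64.3 and 60.5 RPKM (-1.75, SE 0.07). The arginine transporter gene Slc7a1 fell by 0.85 and the spermine synthase gene Sms by 0.87. Ass1, which rebuilds arginine from citrulline, rose from 86.1, 87.4, 82.5 and 86.1 to 199.9, 189, 212 and 217 RPKM (1.24, SE 0.09). Acod1, which makes itaconate from a TCA cycle intermediate, stayed very high, with 3405, 3289.8, 3231 and 3321 RPKM at 4 h and 2761, 2635, 2931 and 2765 at 8 h, a small fall (-0.26, SE 0.08, limma adjusted p = 0.0061). Of 16 markers of alternative activation tested, 10 were lower and 3 higher, Arg1 among the latter, with Maf at -1.29, the lectin gene Clec10a at -1.24, the mannose receptor gene Mrc1 at -1.17 and Klf4 at -0.91. The transglutaminase gene Tgm2 rose by 0.28, a call that was lost without 4h replicate 2 (0.23, limma adjusted p = 0.061), where only 1 member was higher.

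**Figure D2:**
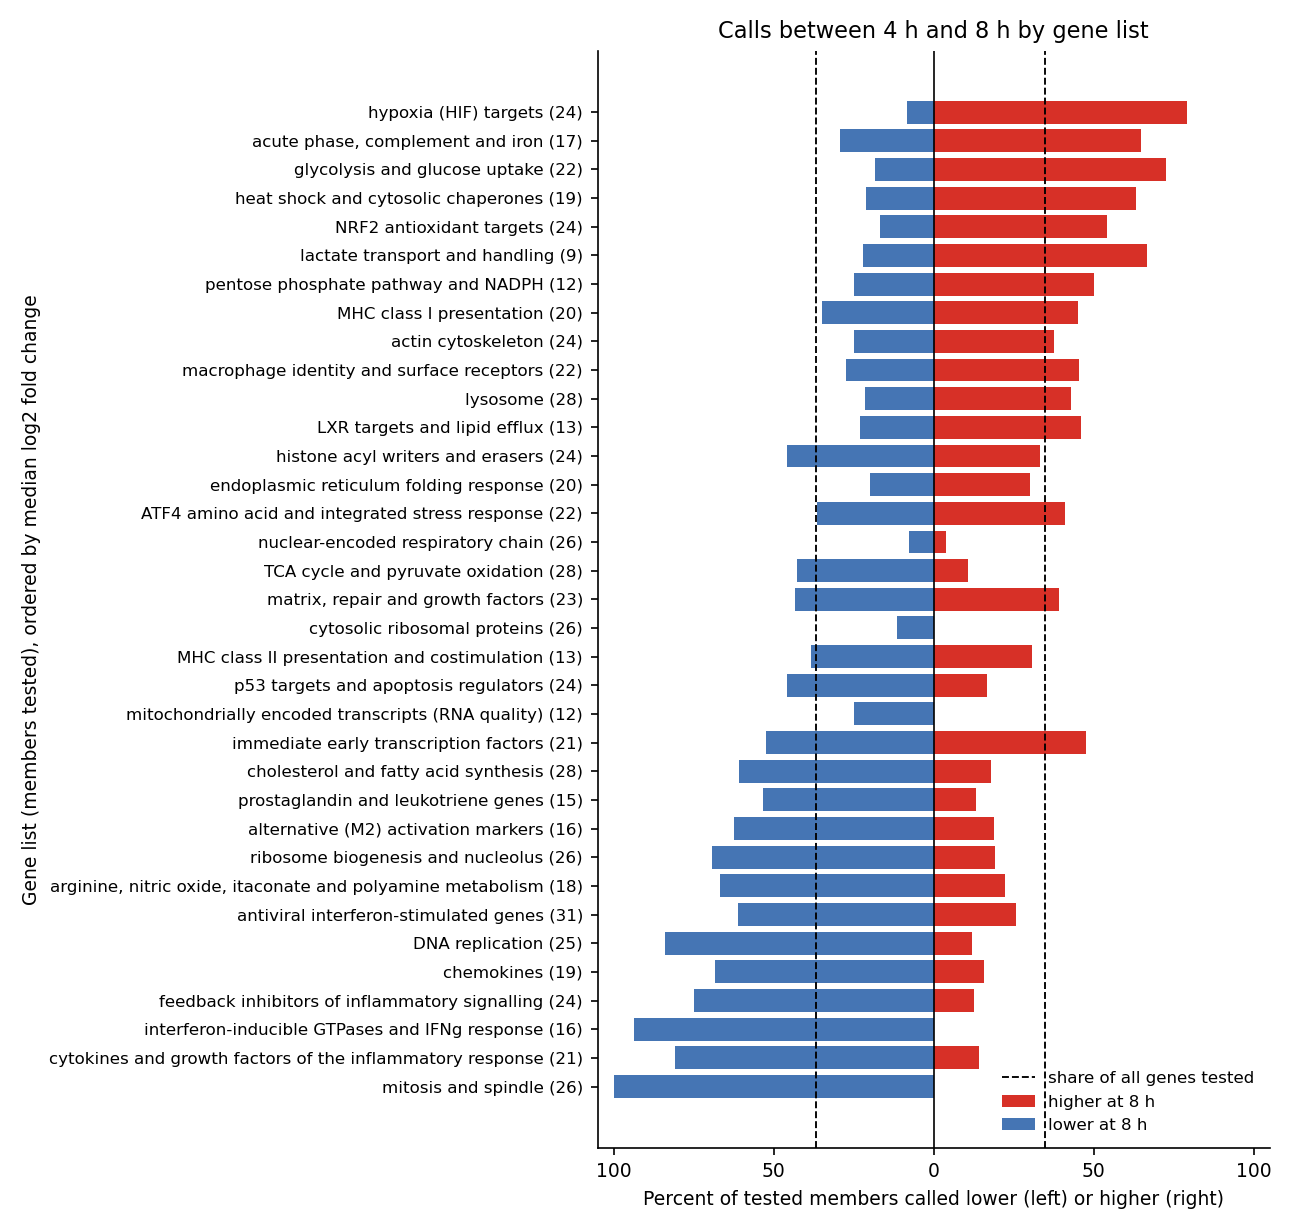
Percent of the tested members of each gene list called lower (blue, to the left) or higher (red, to the right) at 8 h, for lists with at least 9 members tested, with the number tested in brackets; dashed lines mark the shares of all genes tested, 36.9% lower and 34.8% higher. The mitosis list reaches 100% lower at the bottom, and hypoxia targets lead the rises at the top with 79.2% higher.

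Targets of the hypoxia-inducible factors (HIF) rose more than any other list by median. Of 24 tested, 19 were higher and 2 lower (79.2% and 8.33%), with a median of 1.15 against -0.02 for all genes. Egln3, a prolyl hydroxylase that marks HIF for destruction, had 1.97, 1.46, 2.53 and 1.77 RPKM at 4 h and 39.9, 49.9, 39.9 and 43.3 at 8 h, 22.4-fold more in the mean (3.92, SE 0.12, limma adjusted p = 4.9e-23). Hilpda, which protects lipid droplets from breakdown, had 14.5, 13.6, 17.02 and 14.6 RPKM and then 129.8, 126, 139.6 and 139 (3.08, SE 0.12). In both genes the lowest 8h library was several times above the highest 4h library.

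Ankrd37, a gene of an ankyrin repeat protein, rose by 2.45 and Bnip3, a receptor for the removal of mitochondria, by 2.42, with 29.3 to 39.3 RPKM at 4 h and 164 to 197 at 8 h. Vegfa, the growth factor of blood vessels, went from 3.29, 3.099, 3.698 and 3.34 RPKM to 9.73, 9.48, 8.82 and 9.29 RPKM (1.25, SE 0.10). At 4 h Vegfa and Egln3 had lain below their 0h means of 11.6 ± 0.635 and 9.39 ± 2.28 RPKM, and at 8 h Egln3 stood above it. The members that were lower were Pfkfb3 (-0.67) and Epas1 (-0.21), which encodes HIF-2alpha and had under 1 RPKM in every library of both times. Hif1a, named after its value was seen, rose by 0.22.

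Promoter windows of the leading hypoxia genes hold the short core of the hypoxia response element, searched as ACGTG and GCGTG on both strands. The windows of Egln3 (chr12:54203825-54204124, minus strand) and Hilpda (chr6:29272238-29272537, plus strand) are shown from RefSeq (GRCm38.p6), with the core in capitals.
Egln3: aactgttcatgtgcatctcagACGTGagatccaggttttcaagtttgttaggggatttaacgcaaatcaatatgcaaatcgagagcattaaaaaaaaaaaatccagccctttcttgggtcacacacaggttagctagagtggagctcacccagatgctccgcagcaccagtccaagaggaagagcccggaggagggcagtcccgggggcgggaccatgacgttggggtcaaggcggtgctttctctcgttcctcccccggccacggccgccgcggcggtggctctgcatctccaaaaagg
Hilpda: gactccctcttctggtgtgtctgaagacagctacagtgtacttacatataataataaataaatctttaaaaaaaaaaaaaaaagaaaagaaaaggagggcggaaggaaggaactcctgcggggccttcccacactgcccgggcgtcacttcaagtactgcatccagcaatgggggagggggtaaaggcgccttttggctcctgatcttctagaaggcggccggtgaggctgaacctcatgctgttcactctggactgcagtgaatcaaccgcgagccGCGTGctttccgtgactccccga
The core occurred in 18 of 20 windows of the list, but it is short and occurred in 64.52% of the windows of all genes tested and in 43.8% of all windows of the table.

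Glycolysis genes, some of which are also hypoxia targets, mostly rose. Of 22 genes, 16 were higher and 4 lower (72.7% and 18.2%), with a median of 0.52. Slc2a1, the glucose transporter GLUT1, went from 93.3, 75.9, 94.2 and 87.95 RPKM to 251, 257, 248 and 239.7 RPKM (1.50, SE 0.09). Gpi1, which makes fructose 6-phosphate, rose by 1.09, Pfkfb4 by 1.06 and Pgam1 by 0.99. Gapdh, often used as a reference gene, had 119, 103, 111 and 110.2 RPKM at 4 h and 164, 183, 159 and 158 at 8 h, a rise of 0.58 (SE 0.07) without overlap. Gapdh has many near-identical pseudogenes in the mouse, so how many of its reads were counted is uncertain. Actb, the other usual reference, had 3951, 3682, 3738 and 3774 RPKM and 4503, 3844, 4204 and 3878 RPKM, which overlapped (0.11, limma adjusted p = 0.2).

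The bifunctional enzymes that set the level of fructose 2,6-bisphosphate moved in opposite directions, Pfkfb4 up and Pfkfb3 down, the latter with 68.1 to 80.1 RPKM at 4 h and 43.6 to 47.8 at 8 h. Pfkp, a phosphofructokinase, fell by 0.52. At the end of the pathway, Ldha, which turns pyruvate into lactate, had 666, 654, 689 and 677 RPKM at 4 h and 1039.5, 1096, 1109.9 and 1141 at 8 h (0.71, SE 0.09, limma adjusted p = 2.2e-08). Slc16a3, the transporter MCT4 that exports lactate, had 56.5, 48.3, 56.7 and 54.5 RPKM and then 177, 181, 173 and 184 (1.71, SE 0.09). The transporter gene Slc16a1 (MCT1) and the gene of its chaperone Bsg rose less, by 0.46 and 0.42. Ldhb, whose enzyme favours the use of lactate, and Slc16a7 (MCT2) fell by 0.45 and 0.49, at levels under 4 RPKM.

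Gys1, the glycogen synthase of muscle and other tissues, was among the 10 largest rises, with 5.25, 4.12, 5.82 and 4.96 RPKM at 4 h and 35.5, 43.6, 33.7 and 36.6 at 8 h (2.67, SE 0.10). In the list of pentose phosphate pathway and NADPH genes, 6 of 12 were higher and 3 lower. The shares were 50% and 25%, against 34.8% and 36.9% of all genes tested. G6pdx, the entry enzyme of the pentose phosphate pathway, was at 0.62, Pgd at 0.45, Nampt, which makes NAD, at -0.66 and Rpia at -0.42.

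Of 28 TCA cycle and pyruvate oxidation genes, 12 were lower and 3 higher (median -0.08), led by Idh2 from 35.7, 34.6, 32.7 and 35.2 to 17.2, 15.6, 17.8 and 17.1 RPKM (-0.99, SE 0.07), Suclg2 (-0.97), Idh3a (-0.72) and Fh1 (-0.70). The 3 higher, Sdhb (0.21), Aco1 (0.12) and, named after its value was seen, Pdha1 (0.10), lay close to the threshold: only 0 to 1 was called without 4h replicate 2, 3 or 4 or any 8h replicate. The count was 5 with only the 8 libraries of the step in the fit, after rescaling by reads in listed genes, or with the length trend removed. Of 26 nuclear-encoded respiratory chain genes, 23 were not called, with Ndufs1 (-0.37) and Ndufa4 (-0.32) lower and Cox5a (0.35) higher. With only the 8 libraries of the step in the fit, 3 were higher and 5 lower. Slc8b1, which exchanges sodium for calcium across the inner mitochondrial membrane, rose from 4.76, 3.63, 4.28 and 4.48 to 32.3, 33.4, 29.7 and 28.8 RPKM (2.60, SE 0.08).

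**Figure D3:**
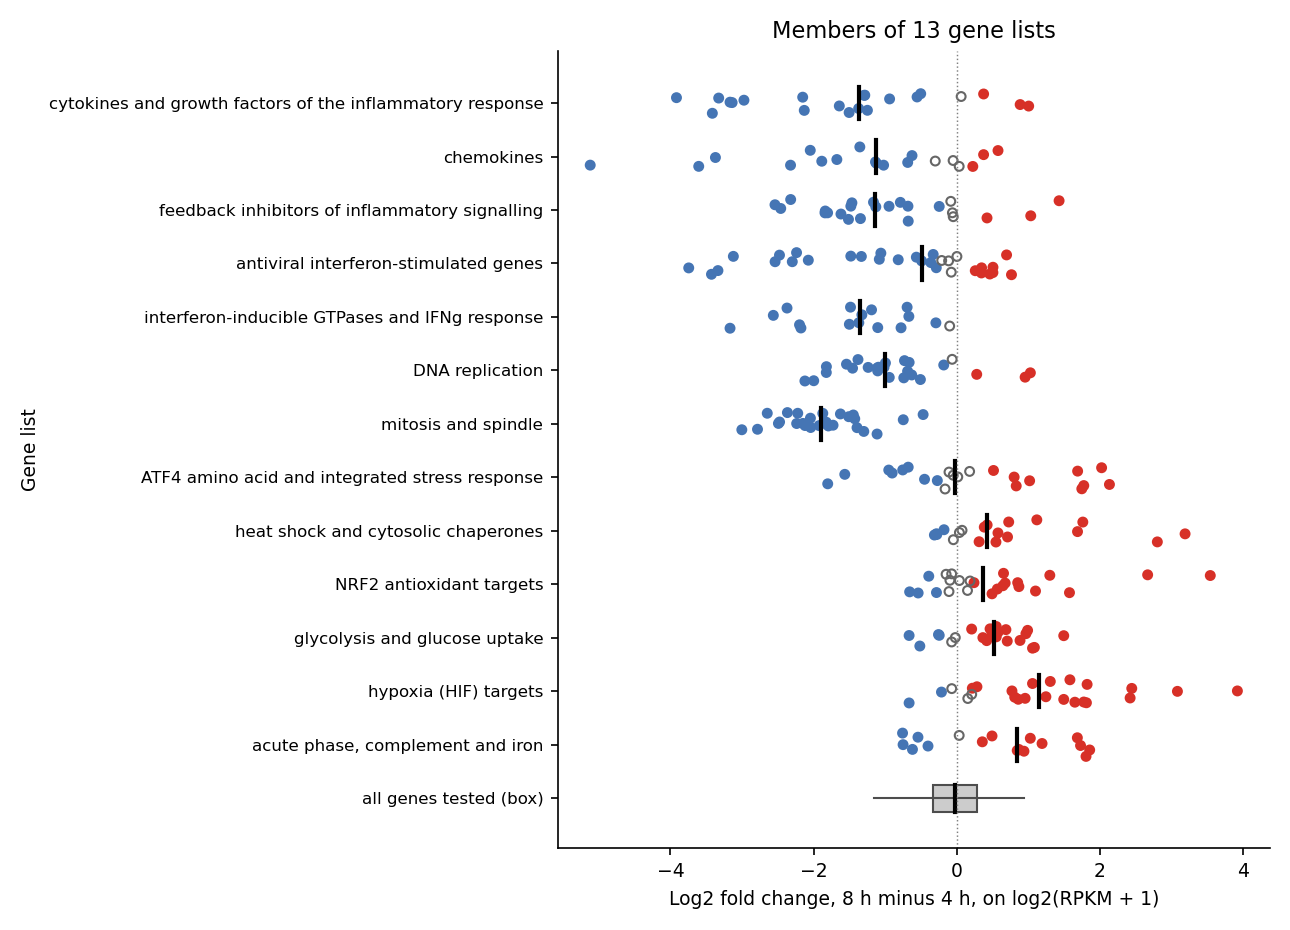
Log2 fold changes from 4 h to 8 h of the tested members of 13 lists, with filled points for genes called higher (red) or lower (blue), open points for genes not called, and a black bar at each median; the box and line at the bottom show the middle 50% and the 5th to 95th percentiles of all genes tested. The cytokine, chemokine and antiviral lists spread over the whole left side, the mitosis list lies wholly below 0 (median -1.90), and the hypoxia list reaches from -0.67 to 3.92.

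Heme and antioxidant genes under the factor NRF2 rose in 13 of 24 members tested and fell in 4 (median 0.37). Hmox1, which degrades heme to iron, biliverdin and carbon monoxide, had 601, 452, 558 and 545 RPKM at 4 h and 5978, 6486, 6137 and 6461 at 8 h, 11.6-fold more (3.54, SE 0.11, limma adjusted p = 4.1e-23). All 8h libraries lay far above the 4h libraries, and the mean stayed at 3506 ± 287 RPKM at 16 h. Osgin1 went from 1.62, 1.15, 1.399 and 1.35 to 14.6, 14.1, 14.3 and 13.3 RPKM (2.67), the heme transporter gene Slc48a1 rose by 1.58, and Srxn1, which repairs oxidized peroxiredoxins, by 1.30. Sqstm1, the autophagy receptor p62, fell by 0.66 and the metallothionein gene Mt2 by 0.54.

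Of 17 acute phase, complement and iron genes 11 rose and 5 fell (64.7% and 29.4%, median 0.85). Saa3, serum amyloid A3, was by mean RPKM the most abundant of the named RNAs at 8 h after the ferritin gene Fth1, with 10055, 11186, 11298 and 11082 RPKM at 4 h and 37659, 36456, 39369 and 45008 at 8 h (1.86, SE 0.16, limma adjusted p = 9.4e-12). Hp (haptoglobin), which binds free hemoglobin, went from 134, 139, 161 and 149.98 to 497, 513, 517 and 525 RPKM (1.81, SE 0.10), and Lcn2, which binds bacterial iron carriers, from 179, 171, 195 and 185 to 587, 571, 604 and 592 (1.69, SE 0.11). No 4h library of Saa3, Hp or Lcn2 reached an 8h library. Marco, a scavenger receptor, rose by 1.73, while the iron importer genes Tfrc and Slc39a14 fell by 0.76 and 0.75.

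Of 19 cytosolic heat shock genes 12 rose and 4 fell (63.2% and 21.1%, median 0.42). Hspa1a and Hspa1b, which encode the inducible chaperone HSP70, were nearly silent at 0 h and low at 4 h. Hspa1a had 1.22, 0.951, 1.24 and 1.18 RPKM at 4 h and 19.6, 17.4, 19.3 and 18.2 at 8 h (3.19, SE 0.08, limma adjusted p = 5.8e-25), and Hspa1b had 2.36, 2.41, 2.17 and 2.32 and then 22.8, 22.1, 20.6 and 23.2 (2.80, SE 0.09). The groups did not overlap, but the copies are so alike that reads cannot be divided between them with certainty. The rise was gone at 16 h, when the means were 1.27 ± 0.115 and 1.79 ± 0.335 RPKM, and for Hspa1a the step exceeded the next step, from 8 to 16 h, by 6.30 (SE 0.14, limma adjusted p = 4.4e-25). The next step shares the 8h libraries.

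Hsph1, a nucleotide exchange factor of HSP70, went from 3.21, 2.74, 3.08 and 2.96 RPKM to 11.6, 13.9, 11.8 and 12.9 RPKM (1.76, SE 0.06), and Dnajb4, one of its co-chaperones, rose by 1.69. Hsf1, the factor that drives the heat shock response, fell slightly, with 7.37 to 9.66 RPKM at 4 h and 6.28 to 6.84 at 8 h (-0.31), as did the HSP90 activator gene Ahsa1 (-0.28). The heat shock element was searched as GAANNTTC and TTCNNGAA on both strands. The windows of Hspa1a (chr17:34972107-34972406, minus strand), Hspa1b (chr17:34959189-34959488, minus strand) and Hsph1 (chr5:149636287-149636586, minus strand) are shown from RefSeq (GRCm38.p6), because the former 2 show how alike the copies are and the third carries several matches, in capitals.
Hspa1a: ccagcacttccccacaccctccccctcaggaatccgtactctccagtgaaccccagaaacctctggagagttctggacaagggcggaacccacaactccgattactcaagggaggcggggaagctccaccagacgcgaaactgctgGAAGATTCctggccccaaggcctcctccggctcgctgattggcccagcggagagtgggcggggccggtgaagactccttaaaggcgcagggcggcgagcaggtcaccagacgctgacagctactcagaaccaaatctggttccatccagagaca
Hspa1b: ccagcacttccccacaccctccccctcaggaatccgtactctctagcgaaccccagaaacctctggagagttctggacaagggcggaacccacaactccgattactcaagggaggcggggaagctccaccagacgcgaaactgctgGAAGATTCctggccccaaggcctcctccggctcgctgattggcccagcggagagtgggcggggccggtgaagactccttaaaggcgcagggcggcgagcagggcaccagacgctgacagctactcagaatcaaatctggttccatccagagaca
Hsph1: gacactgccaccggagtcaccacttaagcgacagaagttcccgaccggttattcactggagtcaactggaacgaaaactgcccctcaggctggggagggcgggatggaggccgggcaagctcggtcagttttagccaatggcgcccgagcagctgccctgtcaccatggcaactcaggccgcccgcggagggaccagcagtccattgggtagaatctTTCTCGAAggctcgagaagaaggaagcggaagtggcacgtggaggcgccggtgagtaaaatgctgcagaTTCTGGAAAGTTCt
The Hspa1a and Hspa1b windows differed at 4 of 300 positions, and in the Hsph1 window neighbouring matches overlapped. A match was found in 9 of 15 windows of the list, against 11.77% of the windows of all genes tested and 15.07% of all windows of the table. It was present in 7 of 9 windows of higher members, 1 of 3 of lower and 1 of 3 of uncalled members. These are too few windows to compare the calls.

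The folding genes of the endoplasmic reticulum did not move with the cytosolic chaperones. Of 20 tested, 6 were higher, 4 lower and 10 not called, and the median of -0.01 turned positive under all 3 rescalings (0.0053 to 0.035). Dnajb9 was the largest riser, from 9.702, 11.9, 12.02 and 11.4 to 20.5, 21.9, 23.1 and 23.2 RPKM (0.92, SE 0.09), followed by Creld2 (0.50), Manf (0.32) and Dnajb11 (0.26). Atf6 and Sel1l, a sensor and a degradation factor of that compartment, fell by 0.29 and 0.26, and Xbp1 and Dnajc3, named after their values were seen, by 0.16 and 0.13. With only the 8 libraries of the step in the fit, 7 genes were lower.

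In the integrated stress response the factor ATF4 answers to lack of amino acids and other stresses. Of 22 genes of this list tested, 9 rose and 8 fell (40.9% and 36.4%, near the 34.8% and 36.9% of all genes), and the median was -0.02 (0.03 when rescaled by reads in listed genes, 0.08 with the length trend removed). Trib3, a pseudokinase that feeds back on ATF4, went from 1.12, 1.01, 1.12 and 1.27 RPKM to 9.32, 7.44, 8.92 and 7.81 RPKM (2.13, SE 0.14). Ddit3 (CHOP), a factor tied to cell death under stress, went from 5.34, 5.84, 5.63 and 5.67 to 26.7, 22.7, 27.5 and 27.01 RPKM (2.02, SE 0.15), and Ddit4 and Sesn2, inhibitors of the growth kinase mTORC1, rose by 1.78 and 1.75. Named genes of amino acid supply fell: the leucine transporter gene Slc7a5 by 1.80, with 12.1 to 15.2 RPKM at 4 h and 2.83 to 3.47 at 8 h, and Shmt2, of mitochondrial serine use, by 1.56. Gdf15, a stress-induced cytokine of the TGF-beta family, was one of the 10 largest rises, from 2.904, 2.03, 1.59 and 1.92 RPKM to 26.6, 16.4, 21.99 and 21.1 RPKM, with more spread than the others (2.85, SE 0.30).

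The amino acid response element was searched as TGATGNAA on both strands, where it reads TTNCATCA on the other. The windows of Trib3 (chr2:152344011-152344310, minus strand) and Chac1 (chr2:119350992-119351291, plus strand), shown from RefSeq (GRCm38.p6) as the higher members that hold it, carry 1 match each, in capitals.
Trib3: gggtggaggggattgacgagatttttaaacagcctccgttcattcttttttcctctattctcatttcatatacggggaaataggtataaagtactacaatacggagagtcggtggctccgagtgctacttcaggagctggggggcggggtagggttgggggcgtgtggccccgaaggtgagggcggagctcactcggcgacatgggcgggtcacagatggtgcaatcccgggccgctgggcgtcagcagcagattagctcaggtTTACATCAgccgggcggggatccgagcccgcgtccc
Chac1: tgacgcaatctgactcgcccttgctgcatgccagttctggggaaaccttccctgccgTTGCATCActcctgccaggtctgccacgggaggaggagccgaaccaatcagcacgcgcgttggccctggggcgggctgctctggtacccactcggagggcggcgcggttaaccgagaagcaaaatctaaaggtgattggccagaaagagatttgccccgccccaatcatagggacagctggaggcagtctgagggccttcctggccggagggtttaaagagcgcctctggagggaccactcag
The element occurred in 7 of 20 windows of the list, 2 of higher, 2 of lower and 3 of uncalled genes, against 2.272% of the windows of all genes tested and 4.056% of all windows of the table. Chac1, which degrades glutathione and was named for this window, rose by 1.69 (SE 0.11).

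Proliferation genes fell steeply. All 26 mitosis and spindle genes tested were lower at 8 h, with a median of -1.90 and a range of -3.00 to -0.47, against 36.9% of all genes. Top2a, which untangles chromosomes, had 26.4, 24.8, 24.6 and 24.9 RPKM at 4 h and 2.21, 2.33, 2.41 and 2.13 at 8 h, 11.1-fold less (-3.00, SE 0.06, limma adjusted p = 7.5e-27). Ccna2 and Ccnb1, the cyclins of S phase and mitosis, fell by 2.78 and 2.65, and the mitotic kinase gene Plk1 by 2.49. At 4 h the summed level of the list was 332 to 355 RPKM, and at 8 h it was 68.8 to 76.2 RPKM. For Ccnb1 the 4h mean was still near the 0h mean, with 17.8 ± 1.99 RPKM at 0 h, 18.5 ± 0.2401 at 4 h and 2.11 ± 0.00521 at 8 h.

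Of 25 DNA replication genes, 21 were lower and 3 higher (84.0% and 12.0%, median -0.996). Dut, which keeps uracil out of DNA, went from 5.91, 5.65, 5.14 and 5.76 to 0.574, 0.474, 0.455 and 0.576 RPKM (-2.12, SE 0.08). The ribonucleotide reductase genes Rrm1 and Rrm2 fell by 2.00 and 1.82 and the helicase gene Mcm7 by 1.82. The 3 that rose were the licensing factor genes Cdt1 (3.87 to 4.76 RPKM at 4 h and 8.59 to 11.8 at 8 h, 1.03) and Cdc6 (0.28, named after its value was seen) and the transcription factor gene E2f1 (4.44 to 4.66 RPKM at 4 h and 9.21 to 10.1 at 8 h, 0.96).

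Genes of mitosis often carry a cell cycle homology region, searched here as TTTGAA and TTCGAA on both strands. The Top2a window (chr11:99024140-99024439, minus strand, RefSeq, GRCm38.p6), which belongs to the deepest fall of the list, holds 4 matches, in capitals.
Top2a: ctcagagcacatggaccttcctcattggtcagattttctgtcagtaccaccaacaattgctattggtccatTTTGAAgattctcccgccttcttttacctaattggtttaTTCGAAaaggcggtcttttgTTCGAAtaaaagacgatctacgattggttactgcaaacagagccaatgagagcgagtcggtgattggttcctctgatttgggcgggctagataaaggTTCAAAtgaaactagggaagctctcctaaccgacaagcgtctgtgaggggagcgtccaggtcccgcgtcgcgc
Matches were present in 17 of 22 mitosis windows, against 14.01% of the windows of all genes tested and 19.44% of all windows of the table. In the DNA replication list, which also fell, they were present in 3 of 20 windows. CCAAT boxes, searched as CCAAT on both strands, were present in 18 of 22 mitosis windows, against 39.35% and 37.92%. They were as frequent in the endoplasmic reticulum list (15 of 17) and the cholesterol and fatty acid list (16 of 19).

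Of 26 ribosome biogenesis genes, 18 were lower and 5 higher (median -0.29), with the small subunit processing gene Wdr43 from 40.7, 45.8, 44.1 and 43.3 to 10.2, 10.3, 10.4 and 10.5 RPKM (-1.97, SE 0.06), Utp20 at -0.91, the dyskerin gene Dkc1 at -0.88 and Rrp9 at -0.85. Gnl3 (nucleostemin) rose by 0.81 and Polr1b, a subunit of RNA polymerase I, by 0.42. Of 26 cytosolic ribosomal protein genes, 3 were lower (Rpl4 -0.30, Rpl3 -0.30, Rpl5 -0.29) and 23 not called, with every estimate below 0 and a median of -0.14. The count of lower ribosomal protein genes was 15 with only the 8 libraries in the fit and 14 with the length trend removed.

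Cholesterol and fatty acid synthesis genes were lower in 17 of 28 and higher in 5 (median -0.25), with Idi1 from 5.84, 7.01, 6.68 and 6.67 to 1.87, 2.14, 2.24 and 2.01 RPKM (-1.30, SE 0.10), Cyp51 at -0.97, Sc5d at -0.78 and Srebf2, the factor that drives the pathway, at -0.69. The desaturase gene Scd2 rose from 1.87, 2.19, 2.296 and 2.01 to 17.3, 22.02, 15.6 and 15.8 RPKM (2.58, SE 0.11) but stayed below its 0h mean of 94.3 ± 6.63, and Mvd rose by 0.81. Ch25h makes 25-hydroxycholesterol, an interferon-induced sterol that blocks cholesterol synthesis. It was read at 209, 280.5, 259.9 and 256 RPKM at 4 h and at 9.65, 8.06, 9.82 and 11.7 at 8 h, the deepest fall after Cxcl10 among the 10 (-4.55, SE 0.11). Among LXR and lipid efflux genes, 6 of 13 were higher and 3 lower (46.2% and 23.1%, against 34.8% and 36.9% of all genes tested). Nr1h3 (LXRalpha) was at 1.16, Mylip at 0.94, Pltp at 0.71, Abcg1 at 0.38 and the fatty acid receptor gene Cd36 at -0.36.

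Prostaglandin synthesis changed at its ends in opposite directions. Ptgs2 (cyclooxygenase 2), which makes the common precursor, went from 459, 434, 471 and 454 RPKM to 117, 124, 123 and 113 RPKM (-1.92, SE 0.15). Ptges, which turns that precursor into prostaglandin E2, went from 85.97, 80.9, 90.3 and 86.7 to 368, 355, 357 and 339.6 RPKM (2.03, SE 0.06), and Ptger2, one of its receptors, rose by 0.92. The leukotriene genes named here fell, with Alox5 at -0.99 and Ltc4s at -0.68, and so did Pla2g4a, which frees arachidonic acid (-0.67). In all, 8 of 15 genes of the list were lower and 2 higher (median -0.26).

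Of 24 p53 and apoptosis genes, 11 were lower and 4 higher (45.8% and 16.7%, median -0.14), against 36.9% and 34.8% of all genes. Birc2, an inhibitor of apoptosis, fell by 1.26, and the NF-kB-induced survival genes Bcl2a1b and Bcl2a1d by 1.12 and 1.03, though these are near-identical copies. The cell cycle inhibitor gene Cdkn1a had 717 to 789.6 RPKM at 4 h and 321 to 336 at 8 h (-1.18). Sesn1 and Pmaip1 (NOXA), among the 4 higher members, rose by 1.09 and 0.72. Sesn1 had 1.28 to 1.42 RPKM at 4 h and 3.81 to 4.38 at 8 h, against 80.8 at 0 h.

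Macrophage surface and identity genes were higher in 10 of 22 and lower in 6 (median 0.08). The shares were 45.5% and 27.3%, against 34.8% and 36.9% of all genes tested. Cx3cr1, the fractalkine receptor, rose from 5.91, 4.75, 5.09 and 5.198 to 13.03, 14.9, 12.6 and 13.9 RPKM (1.23, SE 0.10), and the myeloid factor gene Cebpa by 1.15. Cebpb rose by 0.58 with overlapping groups, 62.7, 44.4, 42.6 and 44.2 RPKM and 96.9, 62.5, 65.2 and 68.01 RPKM, and was no longer called without 8h replicate 1 (0.44, limma adjusted p = 0.062). Tlr2 went from 351, 344, 351 and 351 to 63.6, 59.6, 67.4 and 66.4 RPKM (-2.43, SE 0.11) and Gas6, a bridge to apoptotic cells, fell by 1.62. Cd300lb, an activating receptor of myeloid cells, was among the 10 largest rises, from 8.58, 7.78, 9.19 and 8.500 to 49.9, 53.05, 49.3 and 51.1 RPKM (2.45, SE 0.05), as was Tmem104, from 2.85, 2.27, 2.83 and 2.701 to 22.7, 21.6, 18.97 and 19.6 RPKM (2.57, SE 0.09). Both moved back toward 0h means of 91.9 ± 1.602 and 18.7 ± 0.769 RPKM.

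Lysosome genes were higher in 12 of 28 and lower in 6 (42.9% and 21.4%, against 34.8% and 36.9% of all genes, median 0.05). Tfeb, the factor that drives them, went from 0.649, 0.529, 0.706 and 0.6800 to 3.99, 3.56, 3.51 and 3.45 RPKM (1.50, SE 0.09). Neu1 rose by 0.68 and Ctsz by 0.58, while the proton pump subunit gene Atp6v0d2 fell by 0.77 and the acid lipase gene Lipa by 0.39. Actin cytoskeleton genes were higher in 9 of 24 and lower in 6 (37.5% and 25%, median 0.10), the former share near that of all genes. The myosin gene Myh9 was at 0.82, Pfn1 at 0.57, Flna at 0.42, Lcp1 at 0.33, Marcks at -1.68 and Ezr at -0.76. Matrix, repair and growth factor genes were higher in 9 of 23 and lower in 10 (39.1% and 43.5%, median -0.13). Thbs1, an activator of TGF-beta, rose from 8.18, 6.92, 6.55 and 7.32 to 30.5, 27.6, 27.1 and 22.95 RPKM (1.76, SE 0.21), while Cd44 fell by 1.15, Pdgfb by 0.82 and Plaur by 0.53.

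Writers and erasers of histone acylation, which bear on the series' subject of histone lactylation, were called in shares not far from those of all genes, with 8 of 24 higher and 11 lower (33.3% and 45.8%, against 34.8% and 36.9%). Their median lay at 0.00 and changed sign with the pseudocount. Among deacetylase genes, Hdac7 rose from 0.469, 0.3296, 0.408 and 0.3495 RPKM to 3.38, 3.46, 3.22 and 2.79 RPKM (1.60, SE 0.07) and Hdac5 from 1.04, 0.836, 0.895 and 0.9300 to 4.68, 4.65, 4.12 and 4.099 (1.48, SE 0.08). Among acetyltransferase genes, Kat2b (PCAF) fell from 16.98, 18.4, 18.9 and 18.1 to 7.55, 7.63, 7.904 and 7.27 RPKM (-1.15) and Kat6a by 1.05, as did Hdac2 (-0.93) and Hdac6 (-0.44). Ep300, named after its value was seen because p300 has been proposed as a writer of lactylation, fell by 0.30, with 3.61 to 4.45 RPKM at 4 h and 2.78 to 3.55 at 8 h.

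Few markers of other cell types were listed. Of 16 neutrophil markers 8 were listed and 7 tested, with 3 higher, 1 lower and summed levels of 78.6 to 106 RPKM at 4 h and 101 to 111 at 8 h. S100a8 had 15.8 to 21.7 RPKM at 4 h and 20.5 to 26.5 at 8 h and S100a9 had 31.6 to 51.7 and 26.1 to 36.1, neither called, while Csf3r (0.99), Mmp8 (0.50) and Camp (0.43) rose and Ngp (-0.52) fell. With only the 8 libraries in the fit, 5 neutrophil markers were higher and 2 lower, and 5 were higher under each rescaling and with limma-voom. Of dendritic cell markers, 3 of 12 were tested, with Xcr1 (-1.32) and Kmo (-0.68) lower, Batf3 (0.37) higher and summed levels of 1.98 to 5.07 RPKM over both times. Of lymphocyte markers, Lck fell by 0.35 at 1.17 to 1.54 RPKM at 4 h and Cd79b was not called (0.03). No erythroid or mast cell marker was listed. Of stromal and endothelial markers, Kdr was lower (-0.89), Dcn higher (0.39) and Acta2 not called (0.18), with summed levels of 4.00 to 5.57 RPKM. Mitochondrially encoded RNA, a sign of RNA quality, summed to 1466 to 1565 RPKM at 4 h and 1252 to 1453 RPKM at 8 h, and 3 of its 12 genes were lower (mt-Nd3 -0.80, mt-Nd4 -0.26, mt-Cytb -0.25). Rescaled by reads in listed genes, only 1 was. The part of these cells and of RNA quality in the results was not tested.

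**Figure D4:**
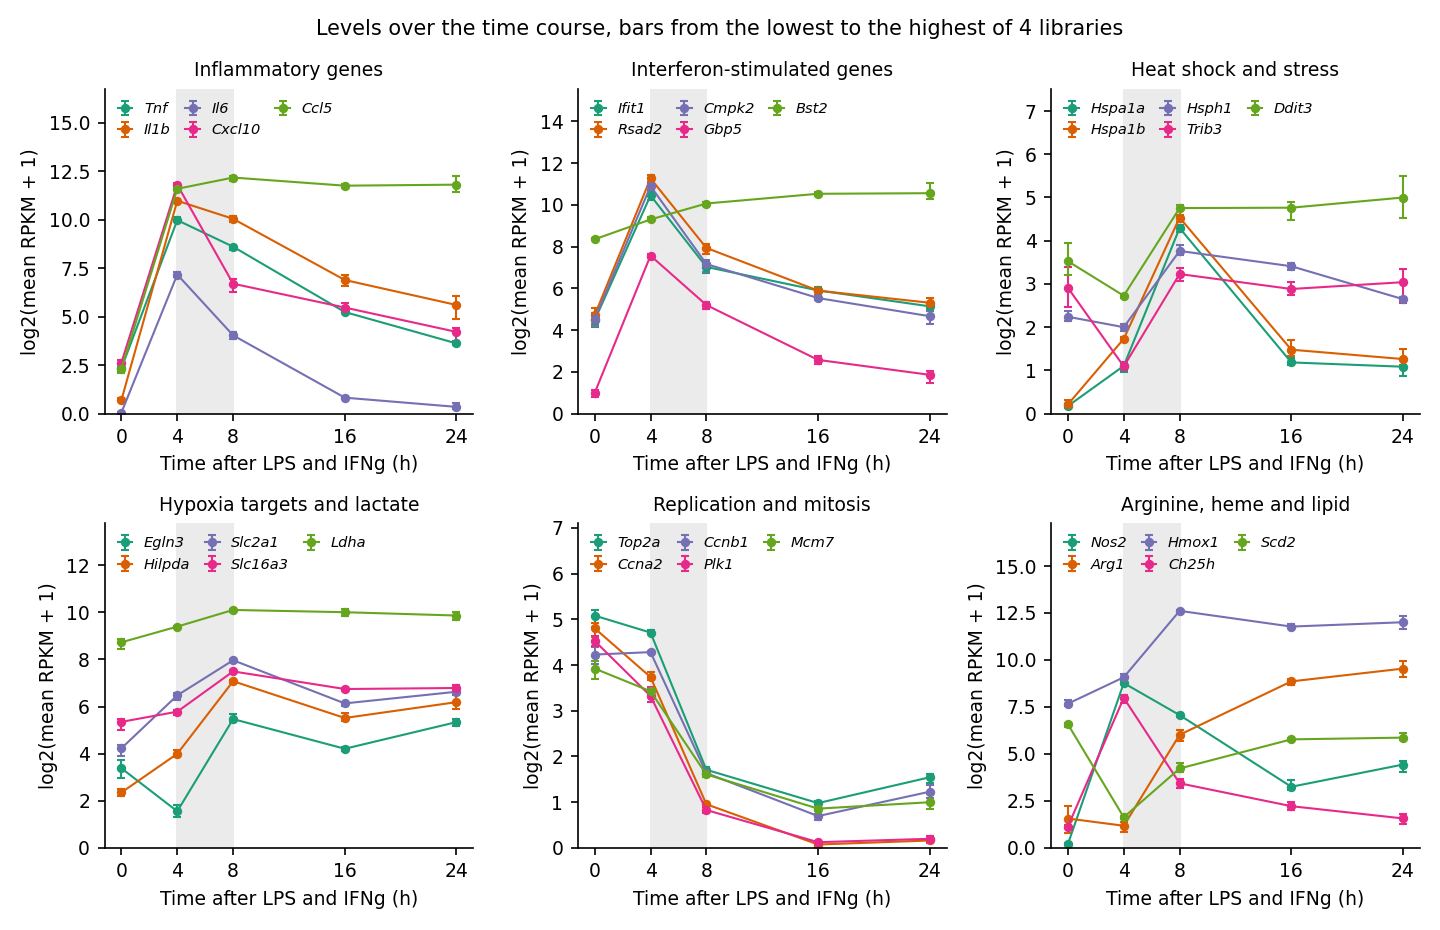
Log2(mean RPKM + 1) of 30 genes at 0, 4, 8, 16 and 24 h after LPS and IFNg, with bars from the lowest to the highest of 4 libraries and the step from 4 to 8 h shaded. Within the shaded step Cxcl10 and Ifit1 drop, Hspa1a and Hspa1b peak at 8 h (18.6 and 22.2 RPKM), Egln3 and Hilpda rise, Top2a falls, and Arg1 starts a rise that goes on to 16 h.

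Set in the time course, genes that rose over the step followed different courses afterwards. Arg1 went on rising to 463 ± 45.9 RPKM at 16 h and 743 ± 181 at 24 h, and Saa3 to 68311 ± 13842 and 72676 ± 17771. Hilpda and Slc2a1 came down from their 8h means of 134 ± 6.73 and 249 ± 7.13 to 44.7 ± 4.64 and 69.1 ± 3.204 RPKM at 16 h. The step differed from the next step by 4.65 for Hilpda and 3.33 for Slc2a1 (SE 0.21 and 0.16, limma adjusted p = 3.1e-18 and 1.8e-17). Ldha was not called over the next step, with 1097 ± 42.5 RPKM at 8 h and 1026 ± 80.9 at 16 h (-0.10, SE 0.09, limma adjusted p = 0.32).

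Genes that fell over the step also differed in what followed. Il6 fell on to 0.767 ± 0.0925 RPKM at 16 h, a change of -3.21 over the next step that did not differ from this one beyond its error (difference 0.07, SE 0.14, limma adjusted p = 0.67). Tnf and Nos2 fell more in the next step (-3.37 and -3.83) than in this one (-1.37 and -1.71), and the differences passed the test (2.00, limma adjusted p = 7.6e-14, and 2.12, limma adjusted p = 5.9e-10). Cxcl10 fell less in the next step (-1.22, difference -3.90, limma adjusted p = 2.7e-15). The next step lasted 8 h and this one 4 h, and the changes were not rescaled for time.

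Lactic acid was added 4 h after the stimulus, at the start of this step, so the LA 8h libraries show the same interval with the acid present. The sample labels count the time of LA 8h from LPS and IFNg, while the series' design text can be read as counting it from lactic acid, and this cannot be settled here. The dose of lactic acid is not given in the sources used here. The comparison shares the 8h libraries with the step. Between LA 8h and 8h, 3196 genes were higher (32.1%) and 3581 lower (36.0%) of the 9942 tested.

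Of the 10 genes that fell most over the step, 4 were higher and 2 lower in LA 8h than in 8h, and Cxcl10 stood at 134 ± 19.2 RPKM with the acid against 103 ± 19.6 without it and 3572 ± 170.2 at 4 h. Inflammatory lists went both ways with the acid, where 32.1% of all genes tested were higher and 36.0% lower. Of 21 cytokine genes 7 were higher and 6 lower, which is near those shares. Of 19 chemokine genes 8 were higher and 9 lower, and of 31 antiviral genes 5 were higher and 18 lower. Of 15 prostaglandin and leukotriene genes 3 were higher and 6 lower. Of 17 acute phase and iron genes 3 were higher and 10 lower. In the arginine and nitric oxide list 2 of 18 were higher and 12 lower. Ptgs2 stood at 359 ± 31.3 RPKM in LA 8h, between its 4h mean of 454 ± 15.3 and its 8h mean of 119 ± 5.18 (LA 8h minus 8h 1.58, SE 0.15, limma adjusted p = 4.2e-10). Nos2 stood at 268 ± 22.3 RPKM (1.01, SE 0.13, limma adjusted p = 6.8e-08). Of the 24 feedback inhibitors 13 were higher with lactic acid and 3 lower, with Nfkbiz at 0.81 and Dusp2 at 0.80.

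Among genes that rose over the step, 3 of the 10 largest were higher and 3 lower with lactic acid. These counts are near the shares of all genes tested, 32.1% and 36.0%. Arg1 reached 24.1 ± 5.52 RPKM with the acid and 63.7 ± 13.7 without it (-1.37, SE 0.22, limma adjusted p = 3.1e-06), and Hilpda 78.02 ± 3.43 against 134 ± 6.73 (-0.77). Saa3 reached 23964 ± 3136 against 39623 ± 3784 (-0.73). Hspa1a and Hspa1b were higher with lactic acid, 43.1 ± 2.95 and 39.5 ± 3.39 RPKM (1.17 and 0.80, SE 0.08 and 0.09). Hmox1, at 6261 ± 332 RPKM, was not called (SE 0.11 on the log2 scale, limma adjusted p = 0.99), and neither was Egln3 (-0.27, SE 0.12, limma adjusted p = 0.0502). Cytosolic ribosomal protein genes were lower with lactic acid in 25 of 26 members and nuclear-encoded respiratory chain genes in 23 of 26, against 36.0% of all genes, while the step without it left 23 of 26 uncalled in each list. Mitochondrially encoded RNA, the sign of RNA quality, was higher with lactic acid in 8 of 12 genes and lower in none, and 5 of 7 neutrophil markers were lower. Their part in these differences was not tested.

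**Figure D5:**
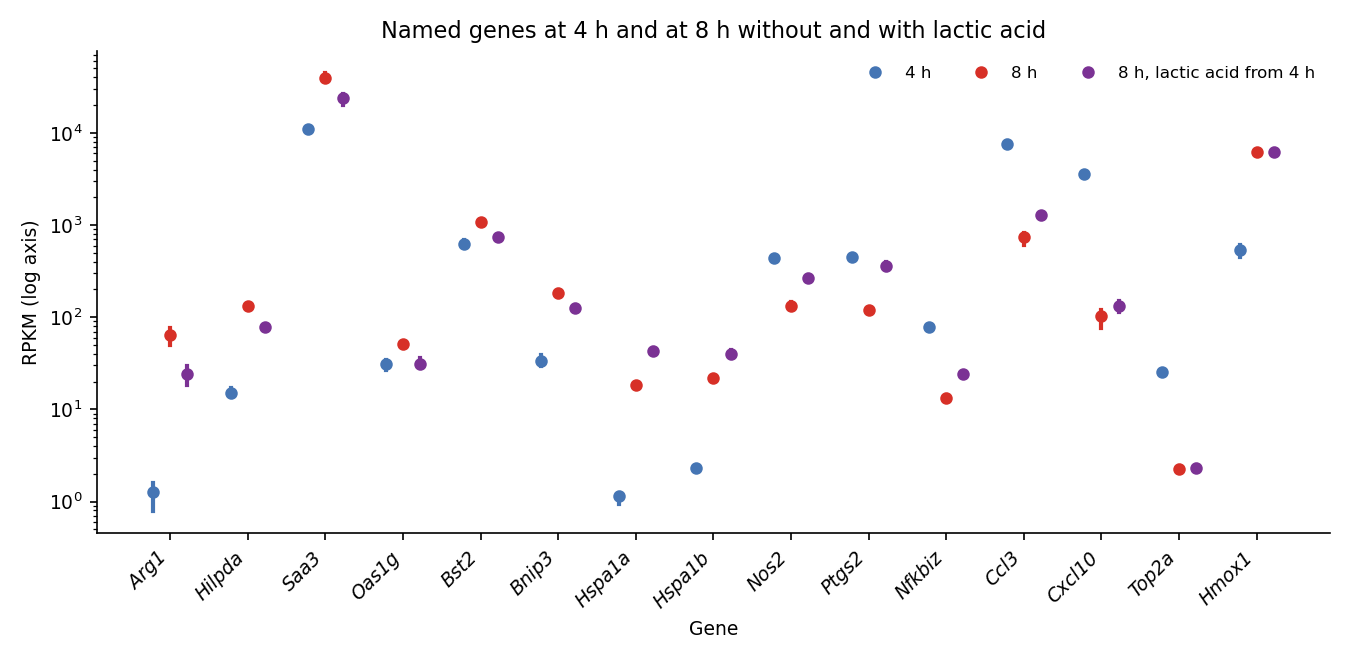
Mean RPKM on a log axis of 15 named genes at 4 h (blue), 8 h (red) and 8 h with lactic acid from 4 h (purple), with lines from the lowest to the highest of 4 libraries. Ptgs2 and Nos2 with lactic acid lie nearer to their 4h level, Arg1 with it (24.1 RPKM) lies below its 8h level (63.7 RPKM), and Hspa1a and Hspa1b lie above theirs.

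Whether the promoters of changed genes carried the marks of the series was read from the authors' peak lists, 1 library per mark and state, as an overlap of at least 1 base between a peak and a 300-base promoter window. These peaks come from 0 h and 24 h, not from the step, and have no replicate, so the shares are a description. An H3K18la peak at 24 h lay over 63.17% of the windows of genes that rose over the step, 60.27% of those that fell and 67.17% of those not called. For H3K18ac at 24 h the shares were 89.54%, 85.12% and 89.13%. H3K18la peaks at 24 h covered 4 of 19 windows of the cholesterol and fatty acid list, 6 of 20 DNA replication windows and 7 of 22 mitosis windows, against 17 of 19, 20 of 20 and 20 of 22 at 0 h, while over all genes tested the share was 63.22% at 24 h and 86.82% at 0 h. Cell type markers aside, other lists in which most members tested fell had shares at 24 h on both sides of that of all genes. These were 41.67% for chemokines, 42.86% for prostaglandin and leukotriene genes and 57.14% for cytokines. They were 63.64% for the arginine list, 63.64% for alternative activation markers and 66.67% for ribosome biogenesis genes. Immediate early factors had 81.25%, antiviral genes 84.0% and feedback inhibitors 90.48%. All 11 windows of the interferon-induced GTPase list, of which 15 of 16 members fell over the step, carried a 24 h H3K18la peak.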

How the data were processed

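RNA was purified with RNeasy, and a stranded mRNA kit was used for the libraries, per the labels' protocols. HISAT2 2.1.0, featureCounts 1.5.0-p1, MACS2 2.2.1, Bowtie2 2.2.6 and the builds mm10 and GRCm38 are named in the submitters' processing notes, with no role or order. The authors deposited RPKM values per gene and library, an FDR (an adjusted p-value over the series, used here only to see how the table was selected), and lists of broad ChIP-seq peaks, used only for their positions, with the authors' fold enrichment per peak.

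Here log2(RPKM + 1) of all 32 RNA libraries was fitted with limma-trend (3.58.1, R 4.3.3), 1 mean per group and no covariate, so that 8 groups share 1 estimate of the spread, and p-values were adjusted by Benjamini-Hochberg over the 9942 genes that reached 1 RPKM in 4 or more libraries. Other differences (LA 8h minus 8h, 16h minus 8h, this step minus the next) came from the same fit. Whole reads were recovered from the RPKM by fitting gene lengths and library sizes so that values came near whole numbers. A gene was kept where this held in at least 30 of 32 libraries. After the fit 99.92% of the values lay within 0.05 of a whole number. That share is largely set by the fit and is no separate check of the reads. These reads gave the depth and the limma-voom alternative, which called 3497 genes higher and 3697 lower. The script was tested on simulated data. The genes named are a fixed set, the 10 largest called changes each way where the mean of log2(RPKM + 1) was 3 or more, and up to 4 leading and 2 opposed called members per list, with any others marked. The members and lists were chosen with earlier results of these data known. Alternatives changed the pseudocount, filter, scaling, length correction, samples and test, and left out each library. The 16h, 24h and lactic acid groups at later times were otherwise not described, and no gene set test was run. A few named genes are not reported here.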

Additional observations from a re-analysis of the deposited data

Results flagged for a closer look

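In 21 of 444 groups of 4 libraries (4.73%, where chance gives about 5%), 1 library of a named gene stood apart: its gap to the nearest of the others took up a share of the whole range above Dixon's critical value. All values are RPKM, followed by the range of the other 3 libraries. At 4 h, replicate 1 was apart for Il1b (2102, others 1986 to 1998), Cebpb (62.7, others 42.6 to 44.4), Batf3 (0.473, others 0.438 to 0.444) and Kdr (1.32, others 1.49 to 1.51). Replicate 2 at 4 h was apart for Pfkfb4 (2.54, others 3.05 to 3.15), Ndufs1 (9.93, others 9.34 to 9.43), Tgm2 (45.1, others 51.8 to 53.2) and Tlr2 (344, others all 351), and replicate 4 for Shpk (0.391, others 0.314 to 0.324).

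At 8 h, replicate 1 was apart for Sh2b2 (5.47, others 4.37 to 4.48), G6pdx (139.5, others 146 to 147), Dnajb4 (6.06, others 7.03 to 7.14) and Cebpb (96.9, others 62.5 to 68.0). Replicate 2 at 8 h was apart for Ptger2 (4.60, others 3.68 to 3.82), Ddit3 (22.7, others 26.7 to 27.5), Sqstm1 (563, others 627 to 632), Tgm2 (64.4, others 60.7 to 61.2) and Polr1b (1.95, others 1.41 to 1.49). Replicate 4 at 8 h was apart for Pgam1 (265, others 258 to 259), Rrm2 (2.03, others 1.96 to 1.97) and Ccna2 (0.784, others 0.972 to 1.00). Cebpb and Tgm2 were apart at both times.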

How the results depend on the processing

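The counts of 3458 genes higher and 3672 lower stayed within 1.5 times under all 18 alternatives. They were 3773 and 4003 with only the 8 libraries of 4h and 8h in the fit, 3727 and 3353 after rescaling by reads in listed genes, and 3969 and 3480 with the length trend removed. Leaving out 1 library at a time gave 3319 to 3377 higher and 3547 to 3608 lower. The median over all genes (-0.018) was -0.028 under the stricter filter, 0.020 after rescaling by reads in listed genes, -0.0012 with each library's median set to 0, 0.025 with the length trend removed, and -0.019 to -0.012 with a library left out. Of 222 named genes, 212 kept their direction and call under every alternative, and no called gene reversed. Leaving out 1 library ended the calls of Sdhb, Aco1, Tgm2, Cebpb or mt-Cytb and gave a call to Cebpe, S100a8, S100a9 or Acta2. The calls of mt-Nd4 and mt-Cytb were lost after rescaling by reads in listed genes. The labels give both groups replicate numbers 1 to 4. Of 4 pairs with the same number, 1 had deviations correlated over 0.1 (range -0.49 to 0.34). With 4 libraries per group, this cannot settle whether the numbers pair the libraries. With the replicate number as a block, 3446 genes were higher and 3665 lower. The medians of the endoplasmic reticulum, ATF4 and histone acylation lists lie so near 0 that their sign also depended on which library was left out. Low genes limit the folds most: the mitosis median was -2.39 with a pseudocount of 0.1 RPKM and -2.65 with limma-voom.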
